A study of Mus musculus with 2 samples.

Results

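The genes described here are 10 of the lysosomal protease system: the cathepsins Ctsa, Ctsb, Ctsc, Ctsd, Ctsh, Ctsk, Ctsl, Ctss and Ctsz, and Cst3, which encodes the secreted inhibitor cystatin C. They were taken by symbol, 10 of the 27998 genes in the files. Their UMI counts (unique molecular identifiers, each counted once per captured molecule) were followed across macrophage-like, monocyte-like and dendritic-cell-like classes of a single-cell experiment. The cells were CD11c-selected from the tumour microenvironment of PyMT mice (C57BL/6N), in 2 libraries that the labels call WT and that are named replicate 1 and replicate 2 here. In the PyMT model a viral oncogene drives mammary tumours, and CD11c is an integrin found on many dendritic cells and macrophages. The labels give no age, no second group and no statement that the libraries came from separate animals. The p-values therefore measure only how class differences vary between these libraries, pooled over all classes compared. That spread may be technical.

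Cathepsins are made as inactive precursors, sorted to the lysosome and activated there at low pH. Ctsb, Ctsc, Ctsh, Ctsk, Ctsl, Ctss and Ctsz encode cysteine proteases, Ctsd an aspartic protease and Ctsa a serine carboxypeptidase. Cystatin C blocks cysteine cathepsins and leaves the aspartic and serine ones untouched. In antigen-presenting cells cathepsins cut proteins into peptides and trim the invariant chain (Cd74) that occupies the groove of MHC class II molecules, and in tumours macrophage cathepsins are known for degrading matrix.

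Replicate 1 held 17369071 UMIs and replicate 2 held 13317214, and 1900 and 1216 cells with median depths of 5670 and 7141.5 UMIs were kept. The libraries shared 2 cell barcodes. Cells were clustered on a random part of the genes that included all markers, with the 10 genes kept out. Clusters were then named from marker genes, and the 14 classes with 20 or more cells per library were compared. Of these, 5 were macrophage-like: C1q-high tumour macrophage-like cells (Vcam1, Olfml3; 279 and 250 cells), lipid-associated macrophage-like cells (Spp1, Gpnmb; 107 and 41), resident macrophage-like cells (Folr2, Cbr2; 280 and 53), monocyte-derived macrophage-like cells (Ms4a4c, Fcgr4; 182 and 119) and macrophage-like cells left without a subset name (210 and 129), in which the C1q-high markers C3ar1, P2ry6 and Ccl12 were also raised. The monocyte-derived name is uncertain, since equally many monocyte markers were raised in that cluster. Monocyte-like cells (Retnla, Ear2, Fn1) numbered 163 and 109. The dendritic classes were cDC2-like cells (conventional dendritic cells of type 2, Cd209a; 189 and 187), cDC1-like cells (of type 1, Xcr1, Clec9a; 133 and 77) and mature DC-like cells (Ccr7, Fscn1; 48 and 26). NK cell-like, epithelial-like, fibroblast-like and cycling-like cells and an unnamed cluster were also in the selection and serve as a reference for levels; the NK cell-like cluster raised 4 NK cell and 4 T cell markers (Cd3e, Cd3d, Cd3g, Lck), so it may hold both. RNA free in the droplets was estimated at 0.777% to 3.27% of the UMIs of the myeloid classes.

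The start regions of the genes are shown first, because several members moved together between classes. RefSeq promoter windows of GRCm38.p6, from 250 bases before to 50 after the annotated start, were found for 8 of the 10 genes. These 8 genes had 9 windows, 2 of them for Ctsa. Below, members are counted by gene, with any window holding the letters, while the percentages are by window. The letters CACGTG, the core of the element recognised by the lysosomal regulators TFEB and TFE3, were searched on both strands and occurred in 3 of the 8 genes, against 7.15% of 32851 windows of this length. The longer TCACGTG, which contains the former, occurred in Ctsa and Ctsd and in 3.77% of windows. The interferon-stimulated response element, on both strands, occurred in Ctss alone and in 3.44% of windows, while the composite of Ets and IRF factors occurred in 0 of the 8 genes and in 2.72% of windows. The stretches around all but 1 of the matches are printed 5′ to 3′ with the match in capitals.
Ctsd, chr7:142388048-142388077, minus strand: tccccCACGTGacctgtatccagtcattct
Ctsd, chr7:142387908-142387937, minus strand: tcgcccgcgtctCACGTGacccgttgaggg
Ctsl, chr13:64370741-64370770, minus strand: gcggcgttagaagcCACGTGctgatctaaa
Ctsa, chr2:164833743-164833772, plus strand: gaacaatgagcaaactgtCACGTGatgcag
Ctss, chr3:95526706-95526785, plus strand: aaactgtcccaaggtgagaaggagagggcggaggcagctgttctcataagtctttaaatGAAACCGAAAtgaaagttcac
In the GENCODE M21 annotation the first Ctsd stretch and the Ctss stretch touch no exon of their gene, the second Ctsd stretch lies in untranslated exon sequence of transcript Ctsd-202, 13 of the 30 Ctsl bases in that of Ctsl-203, and the Ctsa stretch in that of transcripts including Ctsa-201. The Ctsd matches begin at -245 and -98 from the RefSeq start, the Ctsl match at -236, the Ctss match at -21 and the printed Ctsa match at -12 from the second of its 2 annotated starts, with another at 6 that is not printed. These are letters in a window and carry no evidence of binding.

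Cst3 (chromosome 2, 148871722 to 148875692, as all positions here in GRCm38, GENCODE M21) reached the highest level of the 10 transcripts, in dendritic cells. Levels are CPM, UMIs per 1000000 UMIs of the class in a library, scaled by TMM. In cDC1-like cells Cst3 stood at 36973 CPM in replicate 1 and 36397 in replicate 2, and in mature DC-like cells at 24192 and 20885. These were above every other class in both libraries, by 1.63-fold for cDC1-like over mature DC-like and by 2.57-fold for mature DC-like over the next class. That next class, C1q-high tumour macrophage-like cells (8769 ± 327 CPM, SD, n = 2), did not differ beyond the spread from cDC2-like cells (8284 ± 1351). Resident, unnamed-subset and monocyte-derived macrophage-like cells followed at 6243, 5600 and 5333 CPM, and monocyte-like cells had 3774 ± 80.3. Among myeloid classes the lipid-associated cells were lowest at 2959 and 3002 CPM, 12.3-fold below cDC1-like cells. Fibroblast-like cells had 1279 ± 28.2 CPM. NK cell-like cells had 3983 CPM in replicate 1 and 259 in replicate 2, and their Ctsh was 127 and 9.43 CPM. In these cells 8 of 10 cDC2 markers had a UMI in replicate 1 and 2 of 10 in replicate 2, with sums of 1154 and 720 CPM, and the same counts held for the cDC1 markers, with sums of 715 and 562 CPM. These lists are not specific to dendritic cells here, since NK and T cells can express Klrd1 and Cd7 of the cDC2 list and Itgae of the cDC1 list. Whether dendritic RNA bears on the difference between the libraries was not tested.

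Ctsb (chromosome 14, 63122462 to 63145923), an endopeptidase that also trims peptides from their ends, separated macrophages from dendritic cells. Lipid-associated cells had 6861 and 7477 CPM, above the 4115 and 5006 of C1q-high cells. Resident (4352 ± 760) and unnamed-subset macrophage-like cells (3885 ± 373) did not differ from C1q-high cells beyond the spread. Monocyte-derived cells had 2082 ± 89.6 CPM, monocyte-like cells 919 ± 91, cDC2-like cells 517 ± 9.34, mature DC-like cells 377 ± 120 and cDC1-like cells 305 ± 65.9, so the top and bottom myeloid classes lay 23.5-fold apart. Ctsl (chromosome 13, 64359337 to 64370890), a broad endopeptidase, had a wider span of 77.7-fold. It reached 1349 and 1501 CPM in lipid-associated cells, overlapping the 1039 and 1613 of fibroblast-like cells, then 736 ± 133 in resident cells and 314 ± 36.1 in C1q-high cells. In cDC2-like cells it was 59.5 ± 6.11 CPM. The 33.7 and 14.1 CPM of cDC1-like cells and the 11.8 and 24.8 CPM of mature DC-like cells overlapped. The mature DC-like counts were 3 and 4 UMIs and lay only 1.42 and 4.2 times above the estimate for free RNA.

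Ctss (chromosome 3, 95526786 to 95556403) encodes the cathepsin that removes the last parts of the invariant chain in many antigen-presenting cells. It gave the most UMIs of the cathepsins in every myeloid class except resident cells, in both libraries; 3′ UMI counts do not scale with transcript length and are compared between genes as they are. C1q-high cells had 9865 and 10635 CPM and lipid-associated cells 7873 and 8332. Monocyte-derived macrophage-like cells (5670 ± 176) stood above unnamed-subset cells (4216 ± 425), and resident cells had 2843 ± 300. Ctss of cDC2-like cells (2478 ± 184) overlapped that of monocyte-like cells (2426 ± 234). Mature DC-like cells had 1684 ± 460 and cDC1-like cells 893 ± 148 CPM.

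Ctsc, Ctsh and Ctsz, all exopeptidases, had narrower spans. Ctsc (chromosome 7, 88278085 to 88310888), a dipeptidyl peptidase that activates granule proteases, was at 1419 and 1731 CPM in resident cells, 1365 and 1487 in C1q-high cells and 1217 and 1467 in unnamed-subset cells, which overlapped. Lipid-associated cells had only 638 ± 5 CPM, within the spread of monocyte-like cells (657 ± 194). Ctsc was 356 ± 87.2 CPM in cDC2-like, 200 ± 3.81 in cDC1-like and 186 ± 17.6 in mature DC-like cells. Ctsh (chromosome 9, 90054152 to 90076089), an aminopeptidase, varied least: C1q-high cells had 1238 ± 1.89 CPM, mature DC-like cells 1058 ± 83.5, cDC2-like cells 878 ± 71.9 and cDC1-like cells 248 ± 0.906, a span of 4.98-fold. Ctsz (chromosome 2, 174427493 to 174439039), a carboxypeptidase, was highest in C1q-high cells (2058 ± 295) and lipid-associated cells (1579 ± 111) and lowest of the myeloid classes in cDC1-like cells (329 ± 54.5). Ctsc therefore had another order than Ctsb and Ctsl within macrophages, with the lipid-associated class at its lower end.

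Ctsd (chromosome 7, 142375911 to 142388038), the aspartic protease, spanned 143-fold between its highest and lowest myeloid class means. The span was 106-fold in replicate 1, below the 114-fold of Ctsl, and 220-fold in replicate 2, above the 106-fold of Ctsl. Lipid-associated cells had 7347 and 7354 CPM. The next class, C1q-high cells, had 1139 and 2025 CPM, 4.65-fold less on average and without overlap. Libraries differed in Ctsd elsewhere: resident cells had 1389 and 798 CPM, monocyte-derived cells 570 and 364, and mature DC-like cells 118 and 43.4. Ctsd was 118 and 149 CPM in cDC2-like cells and 69.5 and 33.4 in cDC1-like cells. Ctsa (chromosome 2, 164832873 to 164841032) encodes the carboxypeptidase that also protects lysosomal neuraminidase and beta-galactosidase. It was at 432 and 666 CPM in C1q-high cells and 464 and 615 in lipid-associated cells, which overlapped, and at 40.8 ± 6.86 CPM in cDC1-like cells.

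Ctsk (chromosome 3, 95499256 to 95509362), the collagen-degrading cathepsin of osteoclasts, lies 17424 bases from Ctss on the same strand and was nearly absent from myeloid cells. Fibroblast-like cells held 149 and 205 of its UMIs, in 44 of 48 cells (555 and 671 CPM). Lipid-associated cells held 23 and 16 UMIs in 24 of 148 cells (22.5 and 38 CPM). Of these 24 cells, 18 had no UMI of any of 8 fibroblast markers. The same share was not counted over all 148 cells, so it does not set the cells with Ctsk apart. The summed fibroblast markers of lipid-associated cells were 29.9 and 28.2 CPM, against 24.4 and 19 in C1q-high cells, with Pdgfra at 0 in both classes, and 48549 and 38236 in fibroblast-like cells. C1q-high cells had 2 Ctsk UMIs in 529 cells. The pooled ratio of lipid-associated to C1q-high cells was 50.1 (counting interval 13 to 428 at 95%). There were 0 Ctsk UMIs in resident and in cDC1-like cells, where 3 counts would be 1.81 and 1.5 CPM over both libraries. Lipid-associated cells were 15.1-fold and 18.1-fold higher against that floor. The 95% counting intervals of the ratios to these 2 classes reach down to 11.7 and 14.1. Intervals and floors cover counting error only.

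**Figure D1:**
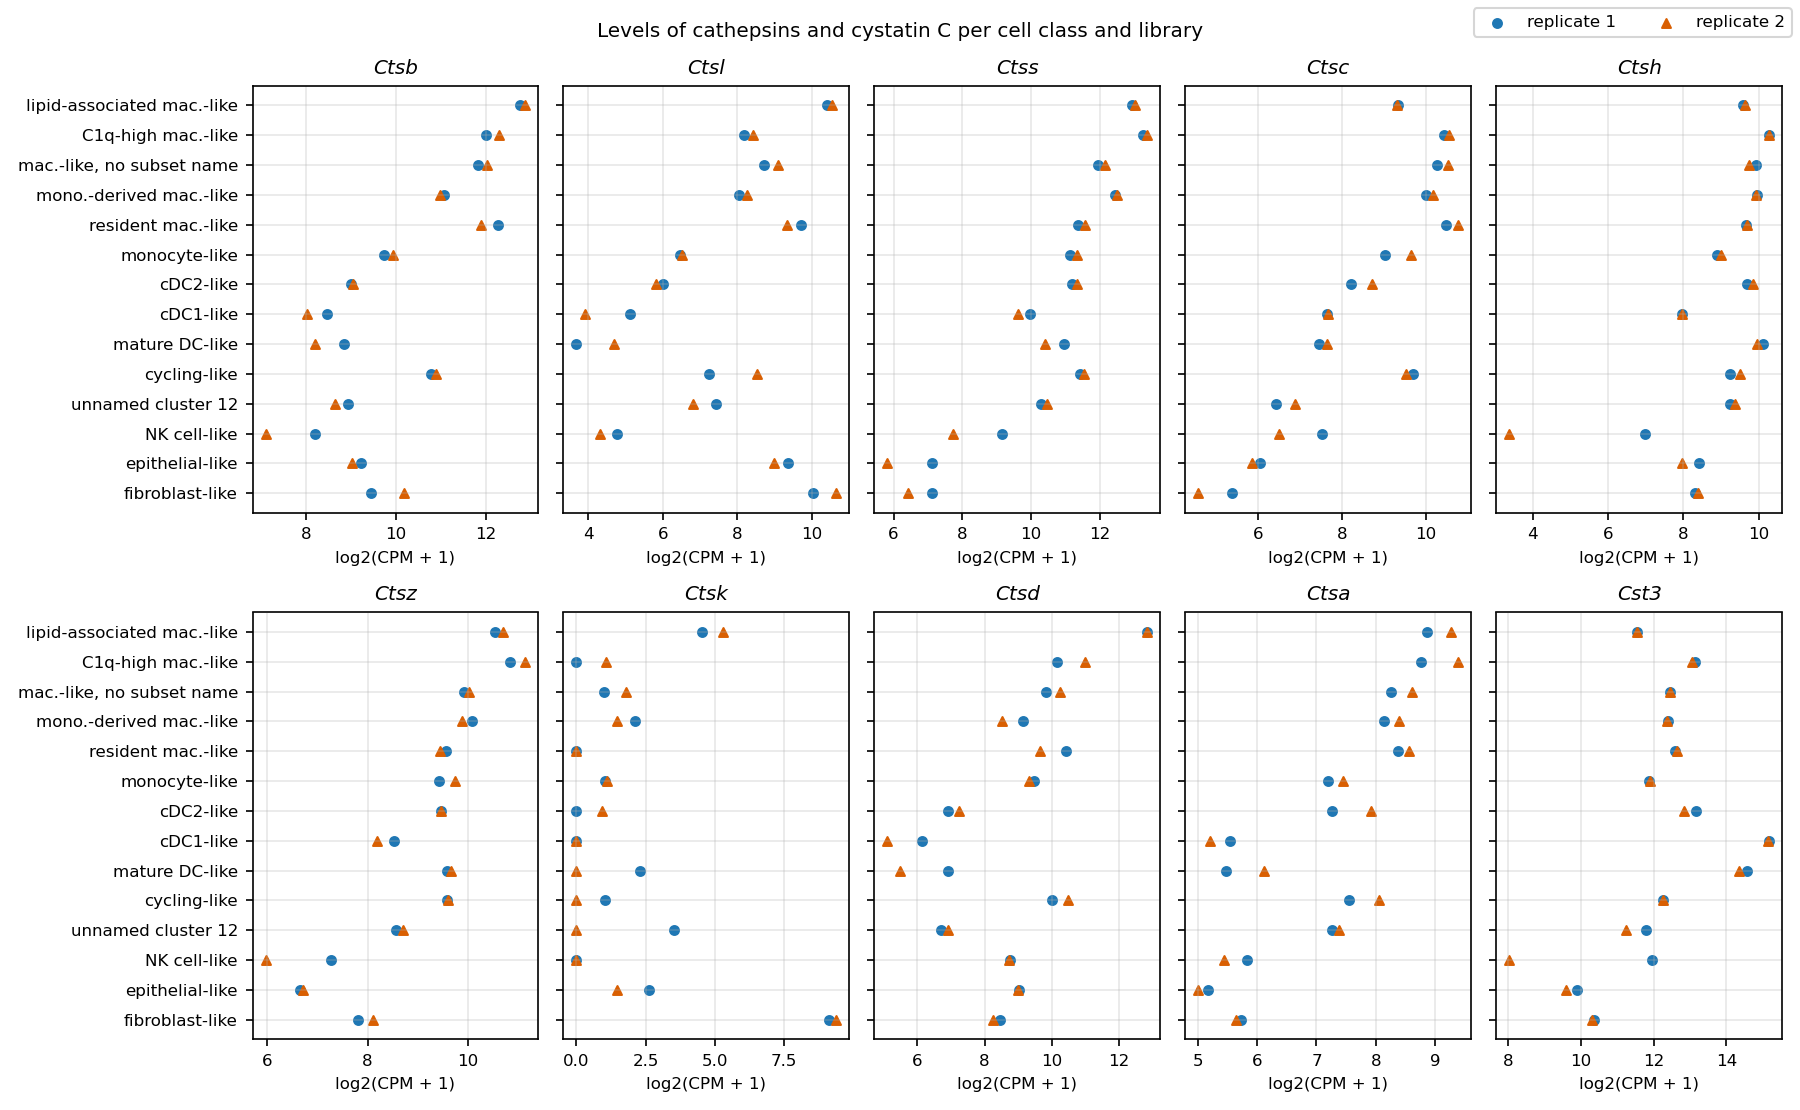
Level of each gene, as log2(CPM + 1) with TMM scaling, in 14 cell classes; circles are replicate 1 and triangles replicate 2. Ctsb, Ctsd and Ctsl lie furthest right among macrophage-like classes in lipid-associated cells, Cst3 in cDC1-like and mature DC-like cells, and Ctsk in fibroblast-like cells.

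Thinning each cell to 1900 UMIs, which no cell fell below, put the classes at equal depth. A Ctsd UMI was then found in 92.5% and 97.6% of lipid-associated cells, in 56.3% and 66% of C1q-high cells and in 12% and 5.19% of cDC1-like cells of replicate 1 and replicate 2. Before thinning these shares were 96.3% and 100% in lipid-associated cells, 78.9% and 86.4% in C1q-high cells, and 35.3% and 23.4% in cDC1-like cells, at median depths of 8826 and 8892, 5483 and 7558, and 7823 and 11097 UMIs. The thinned share of cells with a Ctsl UMI was 71% and 65.9% in lipid-associated, 41.6% and 45.6% in C1q-high and 6.02% and 5.19% in cDC1-like cells. No myeloid class of the selection is free of these genes by its biology, so the cDC1-like values stand here as the low end and not as a background.

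To find which of the genes set macrophages apart from dendritic cells, the 5 macrophage-like classes, weighted equally, were compared with cDC2-like cells. Macrophage-like cells had 10.8-fold more Ctsd, 9.08-fold more Ctsl and 7.91-fold more Ctsb, with smaller excesses of Ctsc, Ctss, Ctsa and Ctsz. Of the 10 genes, 7 were called higher and 0 lower at an adjusted p under 0.05, where 11.4% of 4797 genes kept out of the clustering were called higher and 14.8% lower (26.2% in all). The median log2 fold change of the 9 genes other than Ctsk was 1.18, against 0.018 over all genes tested. The values were 3.43 (SE 0.26, adjusted p = 2.59e-13) for Ctsd, 3.18 (SE 0.27) for Ctsl and 2.98 (SE 0.21) for Ctsb. Ctsc followed at 1.70, Ctss at 1.18, Ctsa at 1.06 and Ctsz at 0.75, all with the same sign in both libraries. Ctsh differed by 0.09 (SE 0.18, adjusted p = 0.81) and Cst3 by -0.58 (SE 0.29, adjusted p = 0.137), and neither passed. Ctsk had 1 UMI in cDC2-like cells and is given no fold here.

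Around these genes, 4 of 9 other lysosomal peptidases tested were higher in macrophage-like cells and 2 lower. Lgmn, an asparagine-cutting protease that activates cathepsin precursors, stood at 2.92 (SE 0.24), and Napsa, an aspartic protease related to Ctsd, at -3.87 (SE 0.18). Of 12 genes for sorting, partners and coat of the lysosome, 7 were higher and 0 lower, with the membrane protein gene Lamp1 at 1.51 and the galactosidase gene Glb1 at 1.23. Of 6 other inhibitors, 2 were higher and 4 lower, including Serpinb9, an inhibitor of granzyme B, at -3.11 (SE 0.35). Of 7 MHC class II genes 6 were lower, H2-DMa by -1.09 (SE 0.26); H2-Oa had 540 UMIs in cDC2-like cells and 3 to 129 in each macrophage-like class. Of 4 MiT transcription factor genes 2 were higher, Mitf at 1.58 (SE 0.48).

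Within dendritic cells, cDC1-like and cDC2-like cells were compared. Cst3 was 4.48-fold higher in cDC1-like cells, while 8 cathepsins were lower, from Ctsa (4.65-fold) and Ctsh (3.54-fold) to Ctsc (1.77-fold) and Ctsb (1.70-fold). Neither library's cDC1-like Cst3 level overlapped those of cDC2-like cells. Thus 1 of the 10 genes was called higher and 8 lower, against 5.23% and 8.11% of all genes tested (13.3% in all), and the median log2 fold change without Ctsk was -1.24 against -0.023. Cst3 differed by 2.16 (SE 0.40, adjusted p = 1.38e-04), Ctsa by -2.22 (SE 0.23), Ctsh by -1.82 (SE 0.24), Ctss by -1.48 (SE 0.25) and Ctsd by -1.35 (SE 0.32). Ctsl differed by -1.24 (SE 0.38), Ctsz by -1.10 (SE 0.20), Ctsc by -0.82 (SE 0.22) and Ctsb by -0.76 (SE 0.23). The Ctsd difference was -0.74 in replicate 1 and -2.08 in replicate 2. Its direction turned to 0.33 when doublets were kept, to 0.85 when all genes but the lists built the clusters and to 1.24 (adjusted p = 2.52e-04) when each cell was assigned by its marker sums, where Ctsb, Ctsc and Ctsl also changed sign and Ctss and Ctsz were no longer called. The calls of Ctsb, Ctsc and Ctsl were also lost in some other alternatives, while those of Cst3, Ctsa and Ctsh held in all.

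Macrophage markers differed between libraries in cDC1-like cells. The 10 macrophage markers summed to 2033 CPM in cDC1-like cells of replicate 1 and 413 in replicate 2, with a UMI for 9 and 8 of them, and to 1128 and 1037 CPM in cDC2-like cells, with 9 in each. Mertk was at 0 in all 4 sums. In C1q-high cells the list summed to 46913 and 57203 CPM. The part of macrophage RNA in the dendritic differences was not tested. Of the 9 other peptidases, 0 were higher in cDC1-like cells and 5 lower, with the carboxypeptidase gene Scpep1 at -2.01 (SE 0.30) and Lgmn at -1.72 (SE 0.29). Of the 6 other inhibitors 2 were lower: Cst7, an intracellular cystatin, with 5 UMIs against 52, and Cstb at -1.17 (SE 0.20). Of the 7 MHC class II genes, H2-Oa was lower (-1.14, SE 0.23) and no other was called. The 12 genes for sorting, partners and coat of the lysosome were mixed, with 2 higher and 3 lower in cDC1-like cells.

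Mature DC-like cells, which have taken up the migratory program marked by Ccr7, were compared with the mean of cDC1-like and cDC2-like cells. Ctsh was 2.27-fold and Ctsz 1.63-fold higher, and the other 8 genes were not called. This is 2 higher and 0 lower, against 7.13% and 7.36% of genes tested (14.5% in all). Ctsh differed by 1.18 (SE 0.21, adjusted p = 5.72e-05) and Ctsz by 0.70 (SE 0.18, adjusted p = 0.00459), the latter not called when cells were assigned by marker sums (adjusted p = 0.124). Cst3 differed by 0.37 (SE 0.33) and Ctss by 0.17 (SE 0.22). The reference averaged unlike classes. Ctsh stood at 1058 CPM in mature DC-like, 878 in cDC2-like and 248 in cDC1-like cells, and Cst3 at 22539, 8284 and 36685 CPM. Ctsh of mature DC-like cells thus lay closer to cDC2-like cells, and their Cst3 lay between the classes averaged. The median without Ctsk was 0.046, where all genes tested had a median of -0.27. The inhibitors differed more: 4 of 6 were higher and 0 lower, Serpinb6b at 5.37 (SE 0.26) and Serpinb9 at 3.54 (SE 0.27). Serpinb6b was among the 10 leading genes of that cluster. Of the MHC class II genes 4 of 7 were lower, among them those of the peptide-loading molecule DM, H2-DMb1 at -3.44 (SE 0.38) and H2-DMa at -2.20 (SE 0.39). Scpep1 and Lgmn were higher by 1.27 and 1.06, and Psap, the precursor of the saposins, was lower at -1.59 (SE 0.25).

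Monocyte-like cells were compared with the mean of the macrophage-like classes. They had less of 8 of the 9 cathepsins: Ctsl was 6.10-fold, Ctsb 4.45-fold and Ctsa 2.55-fold lower, and Ctss, Ctsd, Ctsh, Ctsc and Ctsz between 2.32-fold and 1.55-fold lower. No member was called higher and 8 were called lower, where 12.4% of genes tested were higher and 10.2% lower (22.5% in all), and the median without Ctsk was -1.10 against -0.031. In log2 terms Ctsl differed by -2.61 (SE 0.25, adjusted p = 1.35e-10), Ctsb by -2.15 (SE 0.20), Ctsa by -1.35 (SE 0.17), Ctss by -1.21 (SE 0.21) and Ctsd by -1.10 (SE 0.22). Ctsh (-0.92, SE 0.19) was not called when doublets were kept (adjusted p = 0.0657). In that setting the clusters also changed. There 379 and 257 cells took the monocyte-like name, and the monocyte-derived class, with 52 and 6 cells, was not in the fit. Which of these changes bears on the call was not tested. Not every macrophage-like class exceeded monocyte-like cells. Monocyte-like Ctsd (676 ± 51.3 CPM) lay above that of monocyte-derived macrophage-like cells (467 ± 146), whereas lipid-associated cells had 7350 CPM. Monocyte-like Ctsc (657 ± 194 CPM) overlapped that of lipid-associated cells (638 ± 5). Cst3 differed by -0.53 (SE 0.31, adjusted p = 0.25) and did not pass. Lgmn was lower at -3.16 (SE 0.25) and the neuraminidase gene Neu1 at -1.25 (SE 0.19), whereas Serpinb1a, an inhibitor of neutrophil proteases, was higher, with 149 UMIs against 1 to 38 in each macrophage-like class. Of the 12 lysosome genes, 1 was higher and 5 lower, and of the 7 MHC class II genes 2 were higher and 0 lower. Monocyte-like cells and the macrophage-like classes enter other comparisons too, so these lists are not independent of each other.

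Resident macrophage-like cells were compared with the mean of the other 4 macrophage-like classes. They had 2.35-fold less Ctss and 1.85-fold less Ctsz, with 1.51-fold more Ctsl and 1.46-fold more Ctsc. That is 2 genes higher and 2 lower, against 7.09% and 4.63% of genes tested (11.7% in all). Ctss differed by -1.23 (SE 0.21, adjusted p = 5.44e-05) and Ctsz by -0.89 (SE 0.16, adjusted p = 1.48e-04). Ctsl was higher by 0.59 (SE 0.20, adjusted p = 0.0403, with 0.86 and 0.24 in the libraries) and Ctsc by 0.55 (SE 0.15, adjusted p = 0.0147). Against single classes neither excess was uniform. Lipid-associated cells had more Ctsl (1425 CPM) than resident cells (736 CPM), and Ctsc of resident cells overlapped that of C1q-high and unnamed-subset cells. Ctsd differed by -0.49 (SE 0.21, adjusted p = 0.144) and was not called, though it passed as lower in 6 of 10 alternatives. Several of these averaged other classes. The monocyte-derived class was not in the fit at resolution 0.5, with all genes but the lists, at 1000 UMIs or with doublets kept. When cells were assigned by marker sums there was no unnamed-subset macrophage-like class. Without the library as a block neither Ctsl nor Ctsc passed, with adjusted p of 0.155 and 0.0663. Both were also lost when doublets were kept (adjusted p of 0.0935 and 0.109). Of other peptidases 3 of 9 were higher and 2 lower, Ctsf at 2.05 (SE 0.38) and Napsa at -2.61 (SE 0.39). Of the inhibitors, Serpinb6a (2.35, SE 0.21) and Serpinb1a were higher, Lamp1 was higher by 0.68 and Psap lower at -0.88.

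The lipid-associated and C1q-high macrophage-like classes, the richest in cathepsin transcripts, were then compared with each other. Lipid-associated cells had 4.62-fold more Ctsd and 4.54-fold more Ctsl, and 2.94-fold less Cst3 and 2.23-fold less Ctsc, beside the Ctsk counts given above. Of the 9 genes other than Ctsk 2 were called higher and 2 lower, where 3.77% and 4.46% of genes tested were (8.23% in all), and the median without Ctsk was -0.34 against -0.034. Ctsd differed by 2.21 (SE 0.26, adjusted p = 1.50e-07), Ctsl by 2.18 (SE 0.26, adjusted p = 1.30e-07), Cst3 by -1.55 (SE 0.40, adjusted p = 0.00759) and Ctsc by -1.15 (SE 0.20, adjusted p = 1.20e-04). The Cst3 difference was -1.60 and -1.51 in the libraries, and it did not pass without the library as a block (adjusted p = 0.0793) or with DESeq2 (adjusted p = 0.116). Ctsb was higher by 0.65 (SE 0.22, adjusted p = 0.0573), just short of the threshold. Ctss (-0.34), Ctsz (-0.38), Ctsh (-0.66) and Ctsa (-0.02) were not called. Ctsh passed in 5 of 10 alternatives and Ctsb in 4, in the same directions. Of the 6 other inhibitors 2 were higher, Cstb, an intracellular cystatin, by 1.39 (SE 0.19), and Cst7, with 23 UMIs against 13. All 7 MHC class II genes were lower, Cd74 at -2.96 (SE 0.53) and 5 others between -1.95 and -2.63, while H2-Oa had 3 UMIs against 129. Lamp1 was higher by 0.83 (SE 0.21) and Igf2r, the mannose 6-phosphate receptor that sorts lysosomal enzymes, had 39 UMIs against 4. Ctsf, another cysteine cathepsin, was lower, with 5 UMIs against 61. These UMIs are not scaled to depth. Lipid-associated cells held 1004395 and 426035 UMIs in replicate 1 and replicate 2, and C1q-high cells 1677029 and 1994778.

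**Figure D2:**
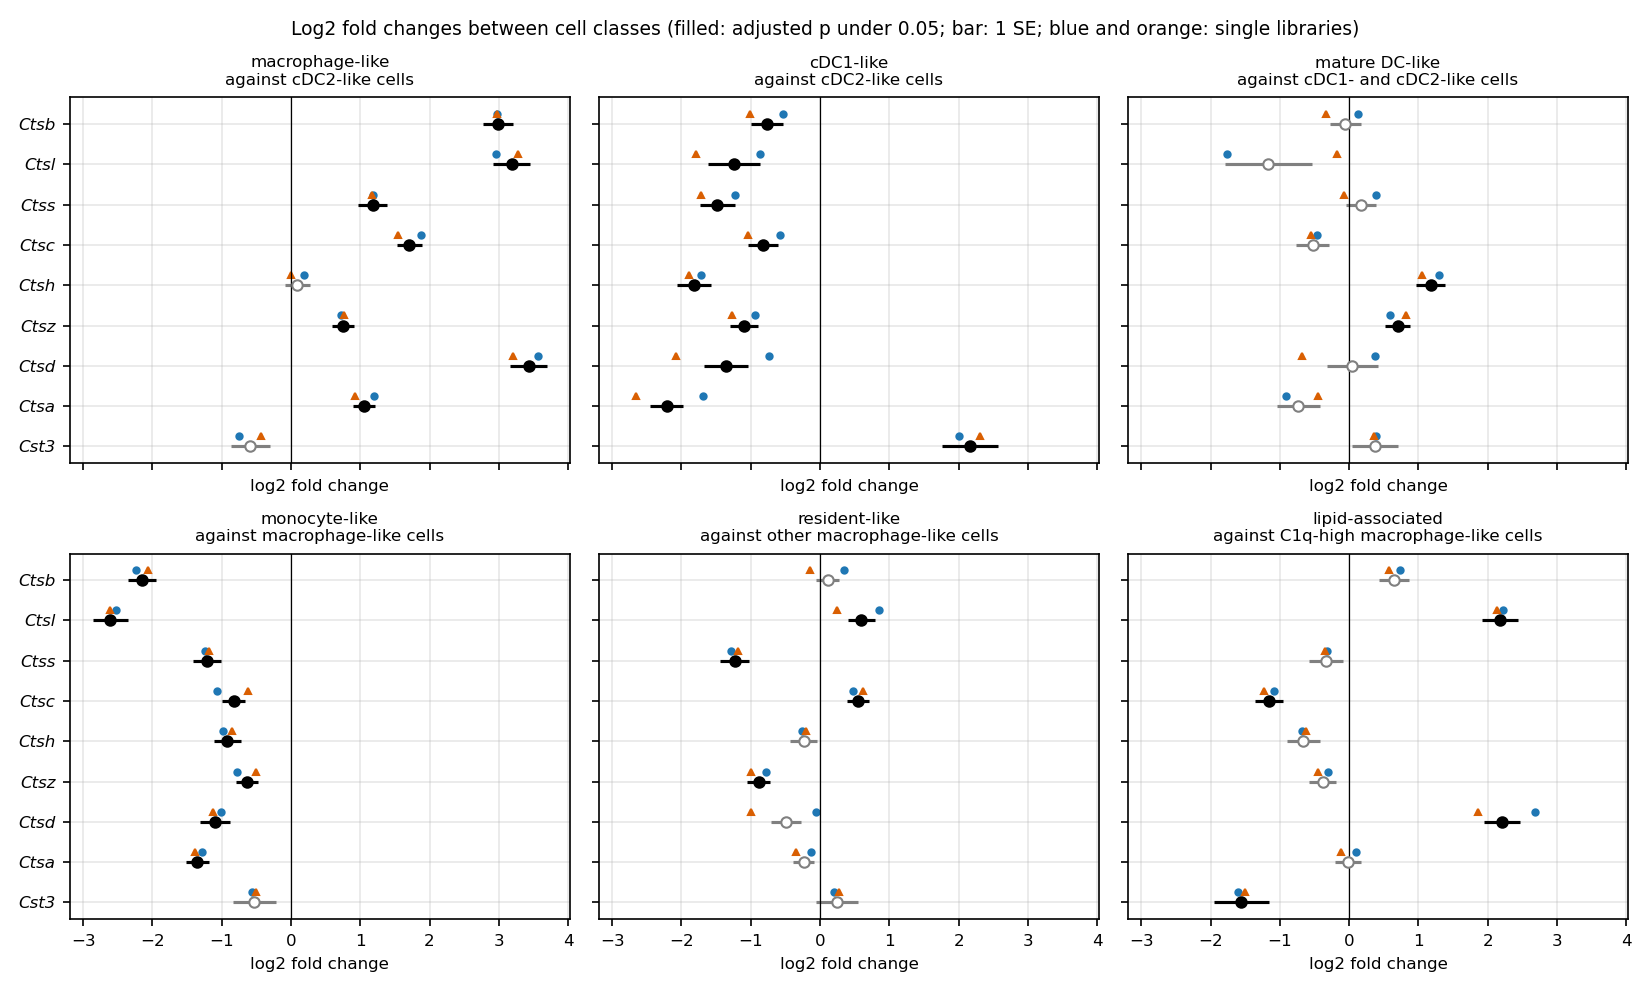
Log2 fold changes of 9 genes in 6 comparisons of cell classes; black dots passed an adjusted p of 0.05, open grey dots did not, bars are 1 SE, and small blue circles and orange triangles are replicate 1 and replicate 2. Ctsk is left out because most classes hold under 4 of its UMIs. The cathepsins lie right of 0 for macrophage-like against cDC2-like cells and left of it for monocyte-like against macrophage-like cells, except Ctsh in the former, while Cst3 is far right for cDC1-like against cDC2-like cells.

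Protease and inhibitor transcripts were set against each other inside each class. In lipid-associated cells the 9 cathepsins made up 2.77% ± 0.056 of all UMIs and Cst3 0.299% ± 0.00296 (n = 2), which is 9.07 and 9.46 cathepsin UMIs per Cst3 UMI in replicate 1 and replicate 2. In cDC1-like cells the cathepsins made up 0.187% ± 0.0234 and Cst3 3.29% ± 0.0443, or 0.0625 and 0.0514 cathepsin UMIs per Cst3 UMI. Mature DC-like cells had 0.194 and 0.182 and cDC2-like cells 0.544 and 0.769. The 4 other macrophage-like classes lay between 2.00 and 2.51 on average, C1q-high cells at 2.25 and 2.77, and monocyte-like cells at 1.54 and 1.73. All 3 dendritic classes thus held more Cst3 than cathepsin UMIs in both libraries, and all macrophage-like and monocyte-like classes held fewer. Counting only the 7 cysteine cathepsins, the ones cystatin C can block, gave 6.62 in lipid-associated cells on average. UMI ratios say nothing of protein amounts or of where the secreted inhibitor acts.

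**Figure D3:**
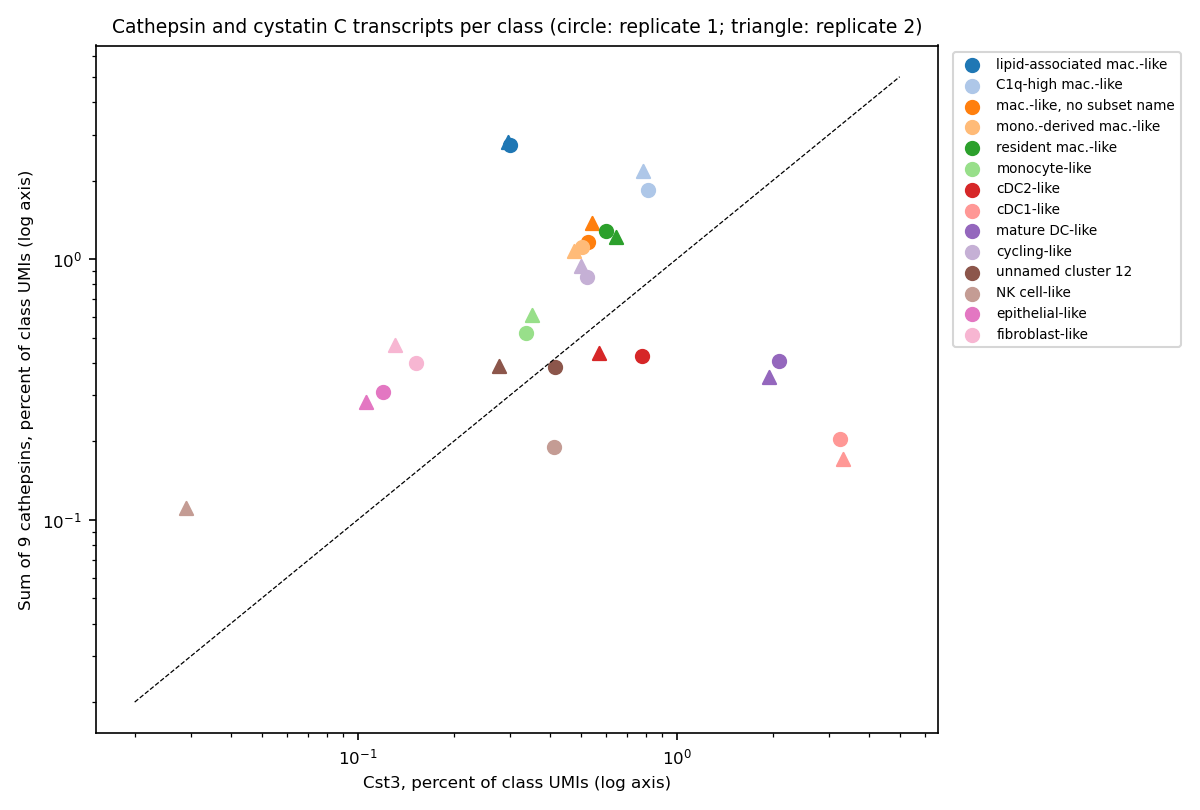
Summed UMIs of 9 cathepsins against Cst3 UMIs, each as a percent of all UMIs of the class, on log axes; circles are replicate 1, triangles replicate 2, and the dashed line marks equal amounts. Lipid-associated cells lie highest above the line, and cDC1-like cells, with 3.29% of UMIs from Cst3, furthest below it.

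The make-up of the cathepsin pool differed as well. Ctss gave 46.8% ± 2.6 of cathepsin UMIs in C1q-high, 47.7% ± 1.53 in monocyte-derived and 46.5% ± 0.301 in cDC2-like cells, but 22.9% ± 3.84 in resident and 29.3% ± 0.0131 in lipid-associated cells. Ctsb led in resident cells with 34.7% ± 3.89. Ctsd gave 26.6% ± 1.06 in lipid-associated cells and at most 11% in the other myeloid classes. Ctsh gave 25% ± 1.84 in mature DC-like cells and 16.5% ± 0.0179 in cDC2-like cells, against 2.84% ± 0.0359 in lipid-associated cells.

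**Figure D4:**
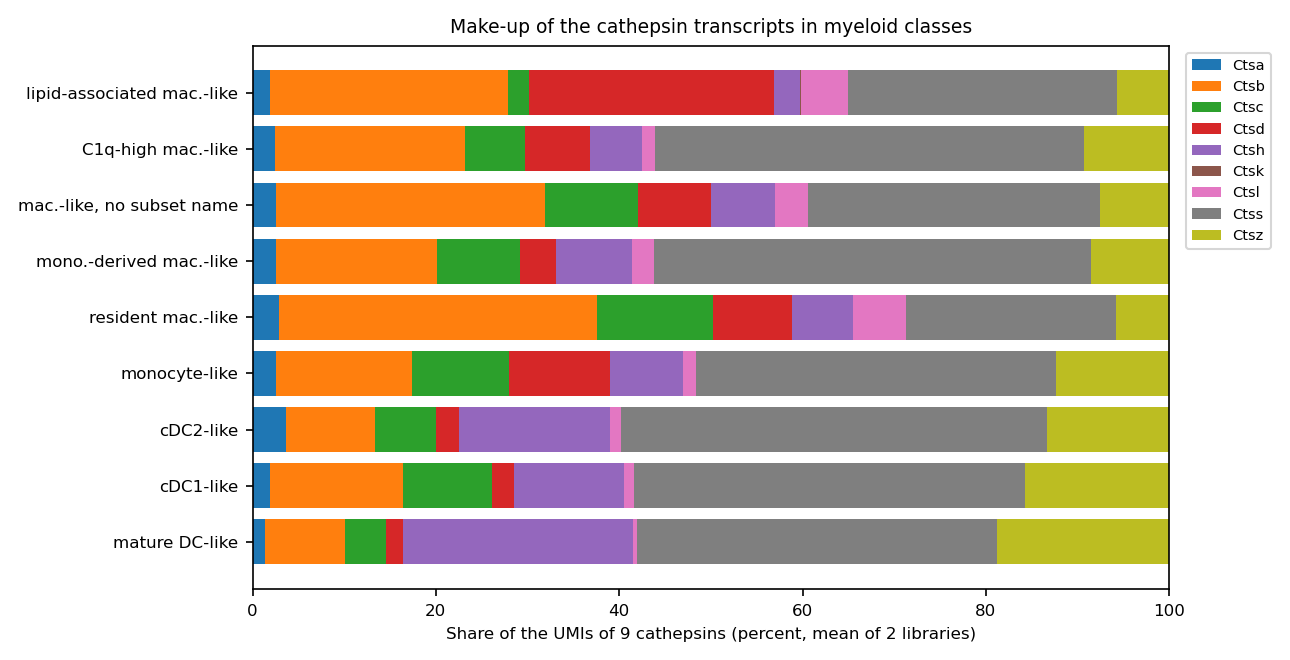
Share of each cathepsin among the UMIs of 9 cathepsins in 9 myeloid classes, as the mean of 2 libraries. Ctss fills the widest bar in most classes, Ctsd widens to 26.6% in lipid-associated cells, and Ctsh to 25% in mature DC-like cells.

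Patterns across the 14 classes were described with Pearson correlations of log2(CPM + 1), averaged over the libraries; the points share their libraries and the scaling, and no test was made. The genes closest to each member among 2098 compared included Grn (0.94) and Tpp1 (0.94), lysosomal proteins, for Ctsb, Fth1 (0.95) for Ctsa and Fcgr3 (0.96) for Ctsc. Cd68, a macrophage lysosomal membrane protein, was closest to Ctss at 0.93, and Atp6v0b, a subunit of the lysosomal proton pump, to Ctsz at 0.92. Lrpap1 was closest to Ctsd at 0.90, Mcfd2 to Ctsl at 0.93 and P2rx4 to Ctsh at 0.88. The fibroblast gene Pdgfrb was closest to Ctsk at 0.88. Cst3 had the weakest best match, Tbc1d8 at 0.84, followed by the costimulatory ligand gene Cd86 at 0.83. Among the members, Ctss and Ctsz were most alike (0.92), and the lowest value was that of Ctsc and Ctsk (-0.47).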

How the data were processed

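Libraries were made with the 10x Genomics 3′ kit version 2. Reads were processed with Cell Ranger 2.2.0 on mm10, per the submitters' processing notes. The files deposited by the authors hold raw UMI counts for 27998 genes and all 737280 barcodes of each library. Cells were called at 2112 and 1905 UMIs (the 99th percentile of the top 3000 barcodes divided by 10), with at least 200 genes and at most 10% mitochondrial UMIs, and the top Scrublet scores, 0.8% per 1000 cells, were removed as doublets.

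The genes and lists were chosen with earlier results of these data known. A random part of the genes, 14043 including all markers, built the Leiden clusters (scanpy 1.11.5, resolution 1.0, 2000 variable genes, 30 components, 20 neighbours); the 10 members and list genes were among 13955 held out, which still correlate with the others. Clusters were named from at least 3 raised markers, by the list with the largest share raised. UMI sums of 14 classes in 2 libraries were fitted by edgeR 4.0.16 under R 4.3.3 (quasi-likelihood test, TMM scaling, filterByExpr, with the library as a block, since sums of 1 library share their capture), with Benjamini-Hochberg adjustment over 4797 held-out genes tested; 13 residual degrees of freedom remained. All 10 members passed the filter, Ctsk through fibroblast-like cells. The script was tested on simulated data. From each list and comparison up to 2 genes were named, those with the largest absolute fold among called genes whose libraries share a sign. Some with low counts in a class are given by UMIs, not scaled to class depth, or left out. The 3 most alike genes per member, of at least 50 CPM in their highest class, were computed. Alternatives were another scaling, DESeq2 1.42.0, no block, no filter on low counts, and other clusterings and cell filters. Values of each single library were also read, under the same scaling and classes.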

Additional observations from a re-analysis of the deposited data

How the results depend on the processing

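Of 35 called values of members, 24 kept their direction and call in all 10 alternatives. Some alternatives compared other class sets. The monocyte-derived class was not in the fit at the lower resolution or with all genes but the lists. It was also out at the lower UMI minimum and with doublets kept. The marker gate had no unnamed-subset macrophage-like class. In these settings the macrophage-like, monocyte-like and resident-like comparisons averaged other macrophage-like classes. Ctsk is among these 35 values and among the 3 higher members given below for lipid-associated cells. It passed the filter through fibroblast-like cells and had 2 UMIs in C1q-high cells. In each single library every called member had the sign of the fit in the 6 comparisons. The numbers higher and lower were 7 and 0 for macrophage-like against cDC2-like and 1 and 8 for cDC1-like against cDC2-like cells. They were 2 and 0 for mature DC-like, 0 and 8 for monocyte-like, 2 and 2 for resident-like and 3 and 2 for lipid-associated cells. No refit was made. The calls, scaling and classes came from both libraries, so these signs are not an independent check. Where calls or directions changed, the cause was not tested.

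For cDC1-like against cDC2-like cells the lower members numbered 5 at resolution 0.5 and 5 when all genes but the lists built the clusters; with the marker gate per cell 2 were higher and 2 lower, and 17.3% of cells lay near the gate's border. Ctsd turned to 0.85 with all genes, 0.33 without doublet removal and 1.24 with the gate, under which Ctsb (0.57), Ctsc (0.030) and Ctsl (0.18) also turned. Held-out genes called numbered 410 with the gate, against 640.

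For macrophage-like against cDC2-like cells 1 member was lower with no filter on low counts and 1 with all genes. For mature DC-like cells the lower members numbered 2 with all genes, 1 without doublet removal and 3 with the gate. Ctsb, not called, turned to 0.013 without TMM and 0.10 with DESeq2, Ctsd to -0.047 with no filter, -0.094 at resolution 0.5, -0.78 with all genes, -0.63 without doublet removal and -0.88 with the gate, and Ctss to -0.11 with the gate.

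For resident-like cells 0 members were higher with no replicate block, all genes or no doublet removal, and 1 with DESeq2, resolution 0.5 or at least 1000 UMIs; 4 were lower with all genes, at least 1000 UMIs or no doublet removal. Ctsb turned to -0.060 at resolution 0.5, -0.13 with all genes, -0.10 at 1000 UMIs and -0.17 without doublet removal, and Cst3 to -0.21 at resolution 2.0, -0.067 with all genes, -0.067 without doublet removal and -0.14 with the gate.

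For lipid-associated against C1q-high cells 1 member was lower with no replicate block, 225 held-out genes were called with no replicate block and 194 with the gate, against 395. Ctsa turned to 0.12 without TMM, 0.026 with DESeq2 and 0.32 at resolution 2.0, where Ctss (0.19) and Ctsz (0.15) also turned. The balance of lipid-associated cells was 6.62 with cysteine cathepsins only, 8.84 as a mean of per-cell shares and 9.07 to 9.46 in single libraries. That of cDC1-like cells was 0.0712 without doublet removal and 0.0514 to 0.0625 in single libraries.

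Without TMM the median of all genes tested moved by 0.23 for macrophage-like against cDC2-like, 0.12 for lipid-associated against C1q-high and 0.11 for cDC1-like against cDC2-like cells. With DESeq2 it moved by 0.12 in the first and 0.24 for mature DC-like cells.

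Calls were also gained, in the direction first fitted for all but Ctsd of mature DC-like cells. That gene was called lower with the gate (-0.88, adjusted p = 0.0233), against 0.046 as first fitted. For lipid-associated cells Ctsh passed in 5 alternatives (-0.67 to -0.57) and Ctsb in 4 (0.63 to 0.85), and for resident-like cells Ctsd in 6 (-1.01 to -0.53) and Ctsa in 3. For mature DC-like cells Ctsa passed in 3 and Ctsc, Ctsl and Cst3 in 1 each. Cst3 passed as lower in 2 for macrophage-like against cDC2-like and in 2 for monocyte-like cells.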
